A study of Mus musculus with 34 samples.

Results

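The clustered protocadherin locus of the mouse was examined as a window of chromosome 18 from 36.8 to 38.0 Mb (GRCm38), which holds 1199 bins of 1 kb among 2631630 bins of the autosomes and X. The bins were chosen by position alone. Within them lie 58 clustered protocadherin genes, 14 of the alpha cluster (chr18:36930285-37188897), 22 of the beta cluster (chr18:37264998-37521419) and 22 of the gamma cluster (chr18:37661775-37841873).

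Clustered protocadherins are cell surface adhesion proteins that neurons use to recognise their own branches. Each alpha or gamma gene is a large variable exon with a promoter of its own, spliced to constant exons shared by the whole cluster, whereas beta genes are single exons without a constant part. Most of the promoters carry a conserved element bound by CTCF, a zinc-finger protein that with cohesin folds a chosen promoter towards distal enhancers. The last genes of the alpha and gamma clusters, called C-type, are regulated apart from the others.

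The measurements come from chromatin integration labelling, in which antibodies bring a DNA probe to their target, transposition fixes it in the chromatin close by, and the adjoining DNA is copied and sequenced. All libraries were made from C2C12, an established mouse myoblast line, and no genotype or treatment is named. Staining was dual, for H3K4me3 (a histone mark of active promoters) with CTCF in 1000 and 10000 cells and for H3K27ac (a mark of active promoters and enhancers) with Pol2S2P (the elongating form of RNA polymerase II, with serine 2 of its tail phosphorylated) in 100 and 1000 cells, or single, for CTCF in 10000 cells and Pol2S2P in 1000 cells. The 8 dual groups hold 3 libraries each (n = 3) and the 2 single groups 2 each (n = 2), with 719766 to 6653298 counts per library. The labels do not say whether replicates were separate cultures, and the p-values rest on the spread among these libraries alone, which may be technical.

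Levels are given as times the genome mean, that is, counts per bin divided by the average bin of the same library, where the average bin holds 0.380 CPM (counts scaled to one common library size). Means are over the 6 dual libraries of a target unless a group is named, with the SD between them. Intervals and floors cover counting error only. As a check of the cell type, the gene start windows (the first 3 kb of a gene) of the myoblast markers Myf5 and Vim stood at 46.8 and 101 times the genome mean in H3K4me3, and 5 of 8 myoblast markers passed 2 times. Of the markers of other cell types, 1 of 6 neuronal ones (Tubb3), 1 of 3 of astrocytes (Gfap), 0 of 4 of blood and 0 of 3 of liver did so. The muscle regulator Myod1 had little H3K4me3 in its window, at 0.813.

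Across the whole window CTCF stood furthest above the genome average. Its mean was 1.61 ± 0.012 in 1000 cells and 1.64 ± 0.0275 in 10000 cells under dual staining, and 1.57 ± 0.0171 under single staining. H3K4me3 stood at 1.13 ± 0.0458 and 1.2 ± 0.0523, H3K27ac at 1.04 ± 0.0806 and 1.06 ± 0.0628, and Pol2S2P at 0.985 ± 0.0168 and 0.967 ± 0.0494. CTCF passed 5 times the genome mean in 52 bins (4.34%), of which 22 lay in other coding genes of the window, and Pol2S2P did so in 20 bins (1.67%), of which 12 lay in other coding genes. The plot of levels along the window shows CTCF peaks in the beta and gamma clusters and, within the clusters, 1 tall H3K4me3 peak, at Pcdhgc3.

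**Figure D1:**
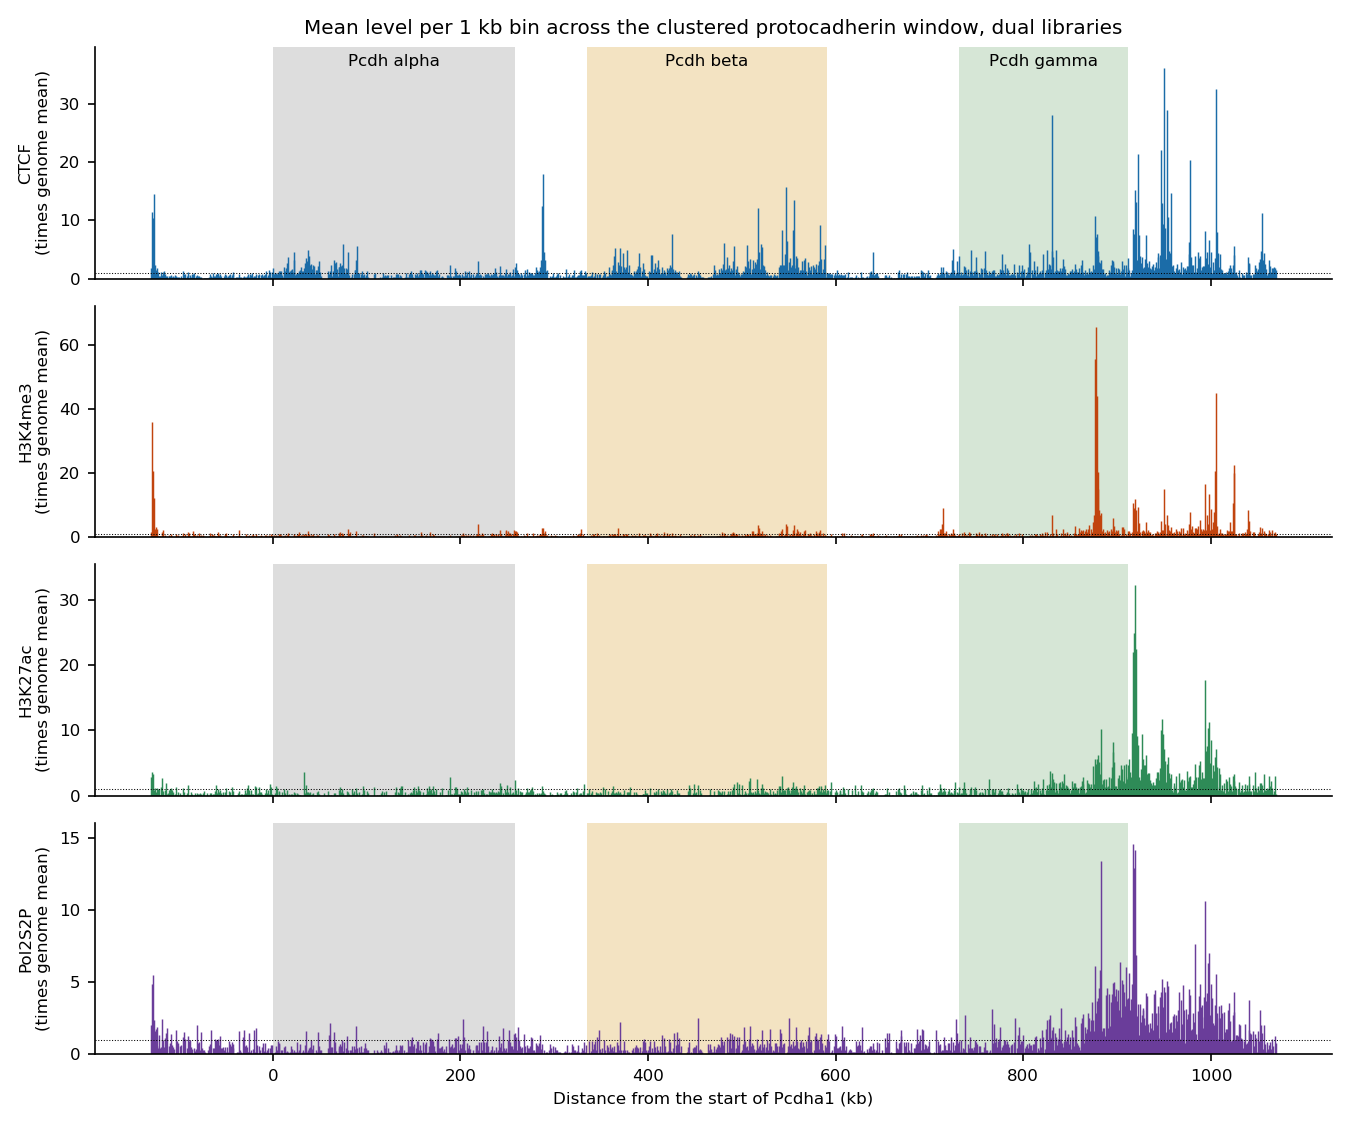
Mean level per 1 kb bin (times genome mean, linear axes with a scale for each target) against distance from the start of Pcdha1 in kb, over the 6 dual libraries of each target; shading marks the alpha, beta and gamma clusters and the dotted line the genome mean. Within the clusters the tallest H3K4me3 bin reaches 65.9 at Pcdhgc3, while CTCF peaks are spread over the beta and gamma clusters and 1 site after the alpha cluster.

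Pcdhgc3, the first of the 3 C-type genes at the end of the gamma cluster, was the highest of the 58 genes for all 4 targets in the 3 kb from the start. Its H3K4me3 level in the start window (chr18:37806410-37809409) was 48.7, 26.6 and 51.6 in the 3 libraries of 1000 cells and 48.3, 45.3 and 39.9 in those of 10000 cells. CTCF in the same window was 8.88, 4.84 and 4.31 in 1000 cells, 6.91, 8.20 and 6.04 in 10000 cells, and 4.42 and 5.67 under single staining. Every H3K4me3 library thus exceeded every CTCF library. In 10000 cells the log2 difference of H3K4me3 over CTCF was 2.64 (SE 0.160, edgeR quasi-likelihood adjusted p = 3.12e-35), from 50.8 against 8.04 CPM. In 1000 cells it was 2.84 (SE 0.265, edgeR adjusted p = 1.01e-13).

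Such a difference is the rule among gene starts, since H3K4me3 passed CTCF at 86.1% of the 10005 starts tested in 10000 cells and at 90% of the 7621 tested in 1000 cells. The median start had a log2 difference of 2.07 and 2.33 in these comparisons, so Pcdhgc3 lay 0.57 and 0.51 above the typical start. Scaling by TMM, which centres the median start near 0, left 0.57 in 10000 cells (edgeR adjusted p = 0.00120) and 0.52 in 1000 cells (edgeR adjusted p = 0.119), so that with 1000 cells the call was lost. The difference did not change detectably with the number of cells (interaction log2 -0.20, edgeR adjusted p = 0.955).

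H3K27ac at the Pcdhgc3 start was 4.72, 4.73 and 4.54 in 100 cells and 6.99, 4.94 and 7.55 in 1000 cells. Pol2S2P there was 2.78, 1.11 and 5.59 in 100 cells, 5.05, 4.16 and 2.11 in 1000 cells, and 4.97 and 8.27 under single staining. The H3K27ac and Pol2S2P libraries overlapped, and their difference in 1000 cells (log2 0.77, SE 0.325, edgeR adjusted p = 0.0901) did not pass the threshold of 0.05. Relative to all coding gene starts, Pcdhgc3 ranked at percentile 96.6 for H3K4me3, 92.1 for CTCF, 92.3 for H3K27ac and 80.6 for Pol2S2P.

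H3K4me3 at Pcdhgc3 formed a domain of neighbouring bins. The bin holding the start (chr18:37805851-37806850) had 55.9 ± 13.7, the next (chr18:37806851-37807850) 65.9 ± 19.6, and the 3 after it 44.1 ± 11.9, 20.3 ± 13.7 and 14.9 ± 7.89. In 10000 cells all 5 bins were higher in H3K4me3 than in CTCF, with log2 differences from 2.06 to 2.99 (edgeR). The last of them lies past the 2.5 kb counted as variable exon.

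The other 57 genes lacked a start of this kind. H3K4me3 passed 2 times the genome mean at 1 of the 58 starts, Pcdhgc3, against 49.9% of all coding gene starts. Median H3K4me3 levels were 0.319 over the alpha genes, 0.50 over the beta genes and 0.467 over the gamma genes, against 1.99 over all starts. Among alpha genes Pcdha11 (0.841, 7 counts over 6 libraries) and Pcdha5 (0.675, 5 counts) were highest, and Pcdha12 and Pcdhac2 had no H3K4me3 count. Among beta genes Pcdhb14 (1.72) and Pcdhb17 (1.58) were highest, with Pcdhb5 at 0.0741 and Pcdhb1 at 0. Among gamma genes Pcdhgc4 followed Pcdhgc3 at 1.89, with Pcdhga3 at 0.175 and Pcdhgb5 at 0. A count of 0 over the 6 libraries allows a level of up to 0.332 (3 counts).

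H3K27ac and Pol2S2P were low at most of these starts too. H3K27ac passed the genome mean at 8 of 58 starts and Pol2S2P at 8 of 58, against 57.6% and 60.9% of all starts. No alpha gene did so for either target: the highest H3K27ac was 0.362 at Pcdhac2 and 0.318 at Pcdha4, and the highest Pol2S2P 0.670 at Pcdha8 and 0.546 at Pcdhac1. At the low end, H3K27ac had no count at Pcdha5 and 1 count at Pcdha9, and Pol2S2P had 1 count at Pcdha1 and 2 at Pcdha4. In the beta cluster Pcdhb16 was highest for both, with 1.05 for H3K27ac and 1.06 for Pol2S2P, followed by Pcdhb17 (H3K27ac 1.02) and Pcdhb21 (Pol2S2P 0.786). The lowest beta genes were Pcdhb9 and Pcdhb11 for H3K27ac (1 count each) and Pcdhb4 and Pcdhb3 for Pol2S2P (2 and 4 counts).

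In the gamma cluster the genes after Pcdhgc3 by level were Pcdhgc5 and Pcdhga11 for Pol2S2P and Pcdhga11 and Pcdhgc4 for H3K27ac. Pcdhgc5 had a Pol2S2P level of 2.65 ± 1.77, and Pcdhgc4 was at 1.64 under dual staining and at 4.72 and 4.32 in the single libraries. H3K27ac was 2.09 ± 1.51 at Pcdhga11 and 2.07 at Pcdhgc4. The lowest gamma genes, Pcdhgb1 (2 counts) and Pcdhga1 (3 counts) for H3K27ac and Pcdhga4 and Pcdhgb2 (3 counts each) for Pol2S2P, all lie before Pcdhgb4. Across the 58 start windows H3K27ac and Pol2S2P ranked the genes alike (Spearman rho 0.688, or 0.671 without Pcdhgc3), a description over windows that share libraries and position.

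CTCF had another layout. It passed the genome mean at 43 of 58 starts, against 65.1% of all starts, but passed 2 times the genome mean at 20 of 58, against 45.4%. The median was 1.45 over the 58 genes and 1.72 over all starts. By cluster the median was 1.51 over alpha genes, 1.94 over beta genes and 1.17 over gamma genes. Pcdha10 (2.92 ± 0.992) and Pcdha12 (2.49 ± 0.612) were highest in the alpha cluster, Pcdhb17 (5.87 ± 2.61) and Pcdhb14 (4.03 ± 0.959) in the beta cluster, and Pcdhgc3 (6.53 ± 1.82) and Pcdhga6 (2.23 ± 0.159) in the gamma cluster. The lowest were Pcdha11 (0.374) and Pcdhac2 (0.376), Pcdhb1 (0.368) and Pcdhb22 (0.792), and Pcdhgb4 (0.624) and Pcdhga7 (0.705).

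This signal was highest within 1 kb of the start, with bins placed by their centres. Averaged over genes, CTCF in the kb before the start was 2.43 ± 0.597 in the alpha cluster, 5.42 ± 0.719 in the beta cluster and 4.05 ± 0.260 in the gamma cluster. Without Pcdhgc3 the gamma mean was 3.72 ± 0.257. The median gene in that kb stood at 2.37 in alpha, 4.66 in beta and 2.13 in gamma. In the kb after the start the CTCF means were 2.48 ± 0.290, 3.26 ± 0.761 and 2.08 ± 0.186, and in the next kb 0.799 ± 0.181, 1.15 ± 0.221 and 1.27 ± 0.167. Further on CTCF rose again, to 2.89 ± 0.256 at 3 to 4 kb in beta. At 5 to 6 kb it reached 2.04 ± 0.440 in alpha and 3.11 ± 0.259 in gamma. Whether these rises belong to neighbouring starts was not tested. H3K4me3, H3K27ac and Pol2S2P showed no peak of the height of CTCF at these starts once Pcdhgc3 was set aside, as the profile around gene starts shows. H3K4me3 had a smaller rise in the kb before the start. It stood there at 0.957 ± 0.488 in alpha, 1.39 ± 0.706 in beta and 1.25 ± 0.450 in gamma without Pcdhgc3. The same profile over all coding genes is not given here.

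**Figure D2:**
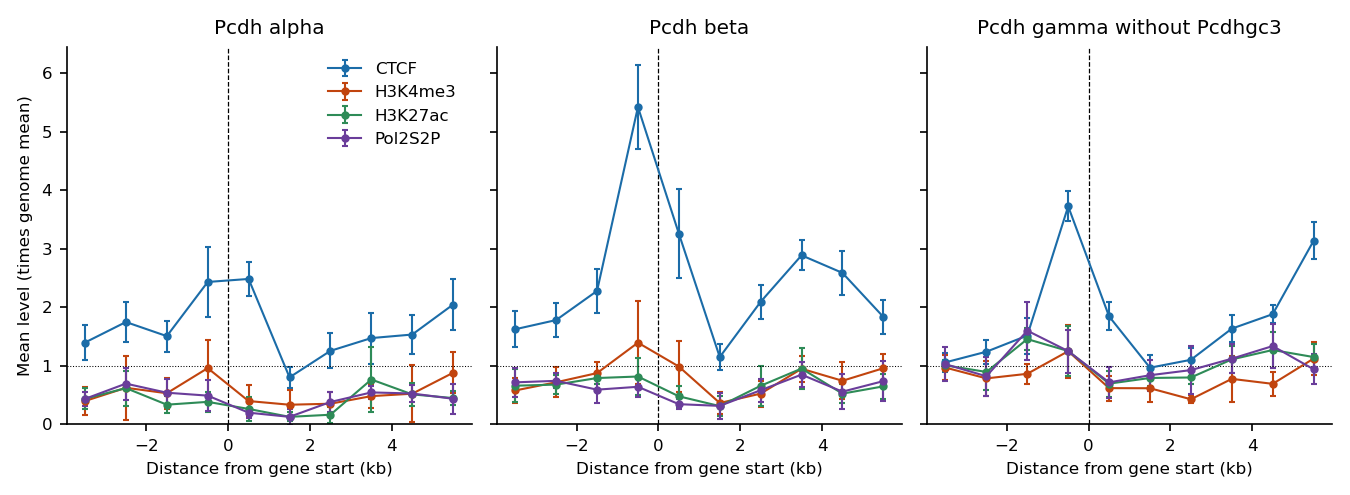
Mean level (times genome mean, error bars SD over 6 dual libraries) in 1 kb steps against distance from the gene start in kb, for 14 alpha genes, 22 beta genes and 21 gamma genes without Pcdhgc3. The CTCF line peaks in the kb before or after the start in each cluster. The other 3 targets stay below that peak, with H3K4me3 at 1.39 in the kb before beta starts.

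The strongest CTCF bin inside the clusters (chr18:37760851-37761850) ends just past the start of Pcdhgb8, annotated as a transcribed pseudogene of the gamma cluster. Its CTCF level was 27.9, 28.2 and 25.9 in 1000 cells, 32.4, 25.1 and 29.1 in 10000 cells, and 25.5 and 23.7 under single staining. H3K4me3 in that bin was 0, 5.99 and 7.5 in 1000 cells and 7.43, 9.33 and 10.9 in 10000 cells, so the targets did not overlap. The log2 difference was -2.38 in 1000 cells and -1.63 in 10000 cells (edgeR adjusted p under the threshold in both, with CTCF at 10.4 and 10.98 CPM and H3K4me3 at 1.71 and 3.503). Pol2S2P was at most 2.5 in the dual libraries but 11.2 and 6.48 in the 2 single libraries.

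The promoter bin of a gene is the bin whose centre lies in the kb before the start, and it holds the start itself in 31 of the 58 genes and ends before it in 27. High promoter bins other than that of Pcdhgb8 were at Pcdhb16 (15.7 ± 3.31), Pcdhb14 (12.2 ± 2.97), Pcdhgc3 (10.8 ± 1.72), Pcdhb21 (9.14 ± 1.89) and Pcdhb17 (8.40 ± 3.57). In the Pcdhb16 bin CTCF was 15.2, 10.5 and 16.4 in 1000 cells, 20.7, 16.6 and 14.9 in 10000 cells, and 12.2 and 16.6 under single staining. The same bin held no Pol2S2P count in any dual library and 2 H3K27ac counts, while H3K4me3 there averaged 4.19. Median promoter bins stood at 2.37 for alpha, 4.66 for beta and 2.13 for gamma genes. Near-identical neighbours in these clusters may share reads, and how multiply mapped reads were counted is not stated in the sources used. Levels of single genes, and of classes of bins made of them, are uncertain to that extent.

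Of the 58 genes, Pcdhac2, Pcdhb1, Pcdhgc4 and Pcdhgc5 are known to lack the shared promoter element. Their promoter bins had CTCF levels of 0.730, 0.935, 1.60 and 0.640, with a median of 0.832. The other 54 genes had a median of 3.19, and 50 of them passed the genome mean. Promoter bins of all coding genes are not given here for comparison, so this level is not shown to be particular to these genes. Among the 54 were also low bins, such as Pcdhga5 (0.796), Pcdhga10 (0.802) and the C-type gene Pcdhac1 (0.866), so the ranges overlapped. All 6 dual libraries exceeded the genome mean at 27 of the 54 genes and at 0 of the 4. These bins hold few counts (5 to 10 over 6 libraries at the genes named here with levels under 1), and the groups were compared as a description.

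**Figure D3:**
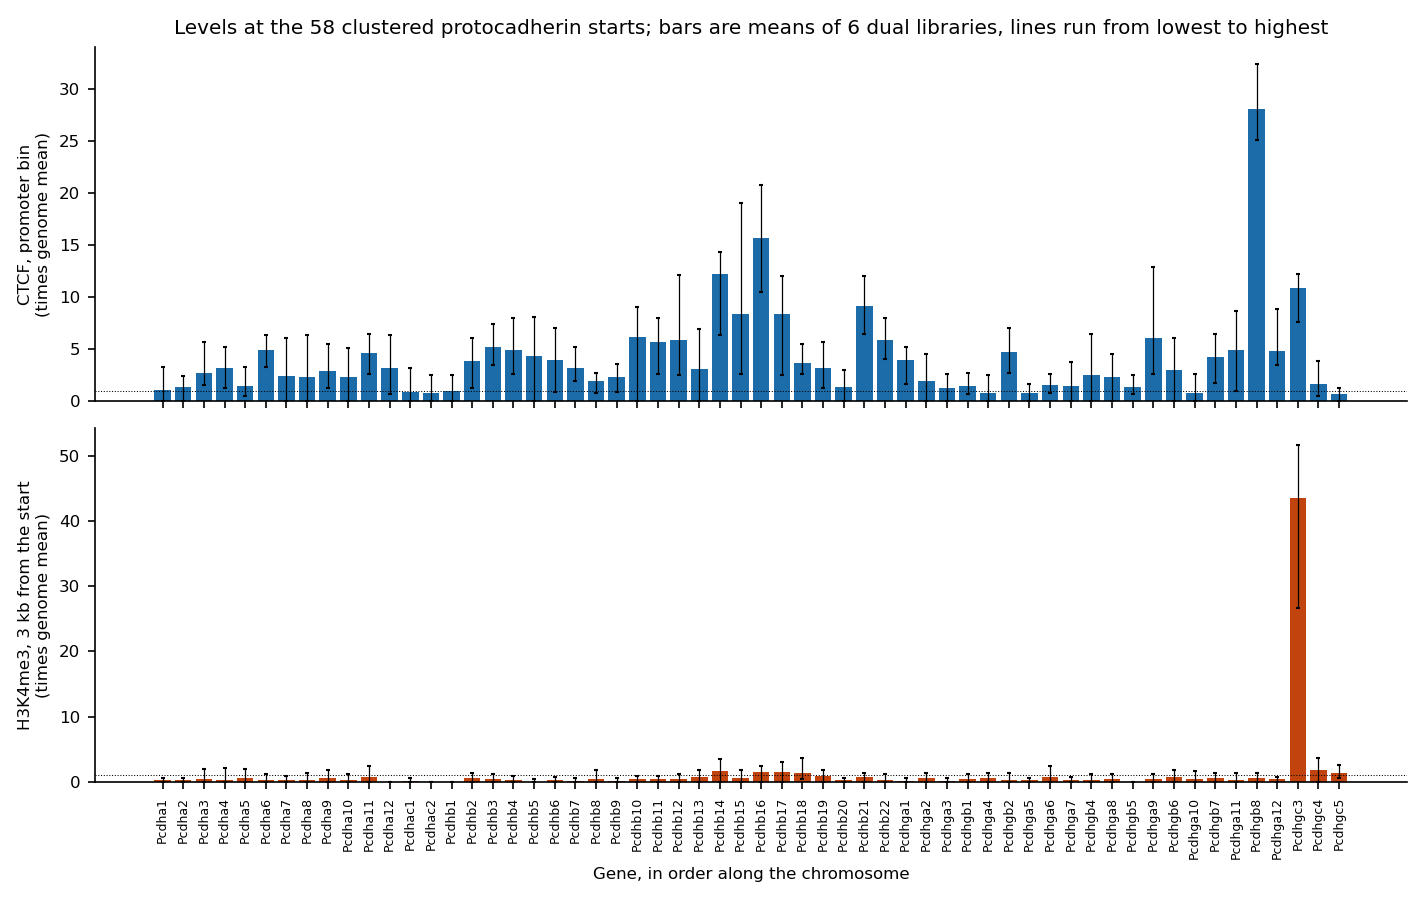
CTCF in the promoter bin, whose centre lies in the kb before the start (upper panel), and H3K4me3 in the 3 kb from the start (lower panel) for the 58 genes in chromosome order, in times genome mean; bars are means of 6 dual libraries and lines run from the lowest to the highest library. CTCF is spread over many genes with its tallest bar at Pcdhgb8 (28.1), whereas H3K4me3 has 1 tall bar, Pcdhgc3 (43.4).

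Bins of variable exons, of the stretches between them and of constant exons were then compared as classes. H3K4me3 was lower than CTCF in variable exon bins of the alpha cluster (0.415 ± 0.121 against 1.64 ± 0.168) and of the beta cluster (0.816 ± 0.253 against 2.86 ± 0.235), with no overlap between the 6 libraries of each target. In the gamma cluster H3K4me3 was higher (3.11 ± 0.362 against 2.16 ± 0.165) in 6 of 6 libraries. Each of these differences gave p = 0.005, the smallest the exact stratified permutation allows, and adjusted p = 0.00786 over 11 classes. The gamma result turned without the Pcdhgc3 bins, an alternative chosen after seeing the data, to a difference of -1.13 at the same adjusted p (exact permutation).

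H3K4me3 was also below CTCF in the intervening bins of the alpha cluster (0.425 against 0.866) and the beta cluster (0.446 against 1.13) and between the clusters (0.394 against 0.840), each with adjusted p = 0.00786 in the exact permutation. In the intervening bins of the gamma cluster the values were 1.55 and 1.59 (adjusted p = 0.735, exact permutation). In the flanks H3K4me3 was higher by 0.174 (adjusted p = 0.0206, exact permutation), a difference that became -0.0107 without the highest bin, which overlaps the lower end of the noncoding gene Vaultrc5 (chr18:36801763-36802107). That bin (chr18:36800851-36801850) had a log2 difference of 1.30 in 10000 cells and 2.06 in 1000 cells. The class tests compare levels relative to each library's own genome mean, and like classes elsewhere in the genome were not tested. Differences between H3K4me3 and CTCF by class are thus not shown to be particular to this locus.

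Within each library the variable exon bins were set against the intervening bins of the same cluster. CTCF was denser at variable exons in 8 of 8 libraries in each cluster, by 1.86 times in alpha, 2.52 times in beta and 1.34 times in gamma (adjusted p = 0.0234 each, exact sign-flip permutation). Without the Pcdhgc3 bins the gamma ratio, at 0.21 on the log2 scale, no longer passed (adjusted p = 0.0586, exact permutation). The gamma class also holds the Pcdhgb8 bin (28.1 in CTCF), the strongest of the clusters. A ratio without that bin is not given here, so a general excess over gamma variable exons is not shown. H3K4me3 did not differ detectably in alpha (0.942 times, adjusted p = 0.625, exact permutation) or, with both numbers of cells pooled, in beta (1.75 times, higher in 5 of 6, adjusted p = 0.0833). By library H3K4me3 in beta was 2.32, 2.41 and 2.18 times as dense in 10000 cells and 0.958, 1.68 and 1.47 times in 1000 cells. In gamma it was 2.03 times denser at variable exons (6 of 6, adjusted p = 0.0469, exact permutation), and this again reversed without Pcdhgc3, to -1.11 on the log2 scale (adjusted p = 0.0536).

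The remaining targets ran the other way in the alpha and gamma clusters. H3K27ac at variable exons was 0.339 times its intervening level in alpha and 0.621 times in gamma, lower in 6 of 6 libraries in each (adjusted p = 0.0469, exact permutation). Without Pcdhgc3 the gamma value moved further from 0, from -0.69 to -1.05 on the log2 scale, with adjusted p = 0.0536 (exact permutation). The smallest p open to 6 libraries is 0.03125, so this lost call does not show a weaker difference. Pol2S2P was 0.564 times in alpha (lower in 7 of 8 libraries, adjusted p = 0.0375, exact permutation) and 0.622 times in gamma (8 of 8, adjusted p = 0.0234). In beta neither passed, with 1.27 times for H3K27ac (adjusted p = 0.307) and 1.16 times for Pol2S2P (adjusted p = 0.169, exact permutation). By library, Pol2S2P in beta was 1.53 and 1.80 times under single and 0.835 to 1.16 times under dual staining. In gamma it was 0.907 and 0.751 times against 0.461 to 0.758 times. From 1 to 2 kb after alpha starts all 4 targets were below the genome mean (CTCF 0.799, H3K4me3 0.331, H3K27ac 0.124, Pol2S2P 0.124). Whether multiply mapped reads bear on these ratios was not tested.

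**Figure D4:**
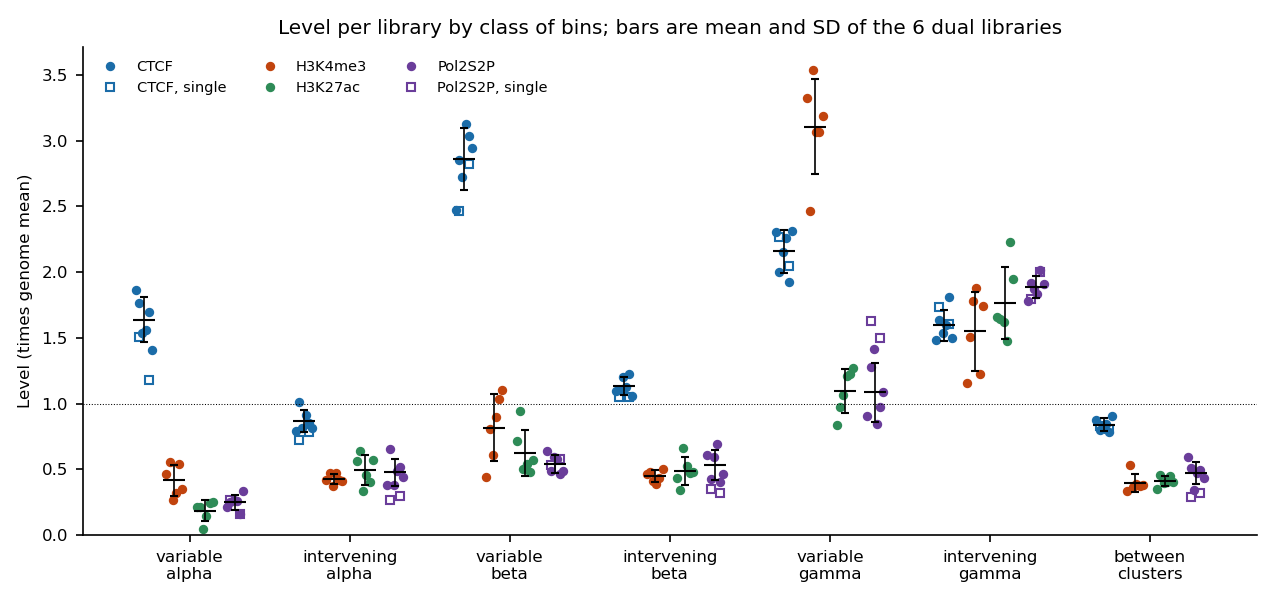
Level per library (times genome mean, 1 point per library, open squares for single staining) in 7 classes of bins for the 4 targets, with the mean and SD of the 6 dual libraries. CTCF lies above the other targets in the variable and intervening classes of the alpha and beta clusters, and H3K4me3 lies above CTCF at the gamma variable exons (3.11 against 2.16), a class that includes Pcdhgc3.

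Constant exons were represented by the last 3 kb before the shared 3′ end, 4 bins in each cluster. At the alpha constant bins H3K4me3 stood at 1.04 ± 1.11 and CTCF at 0.771 ± 0.425 (adjusted p = 0.735, exact permutation), and H3K27ac and Pol2S2P at 0.351 and 0.706. At the gamma constant bins Pol2S2P was 3.75, 2.92 and 4.19 in 100 cells, 4.15, 3.54 and 5.34 in 1000 cells, and 7.27 and 6.48 under single staining. H3K27ac there was 6.06, 2.53 and 5.11 in 100 cells and 2.72, 3.49 and 2.49 in 1000 cells. Both targets therefore exceeded the genome mean in every library, and they did not differ from each other detectably (3.73 ± 1.51 against 3.98 ± 0.810, exact permutation adjusted p = 0.892). H3K4me3 was below CTCF at these bins (0.985 ± 0.875 against 2.21 ± 0.597, adjusted p = 0.0244, exact permutation), on 0 to 5 H3K4me3 counts per library. That call was lost when same-numbered libraries were taken as pairs (exact paired adjusted p = 0.0764) and when totals left out the top bins (adjusted p = 0.0825, exact permutation).

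None of the 11 classes passed the threshold for H3K27ac against Pol2S2P after adjustment. The smallest p was for other coding genes of the window (3.5 against 2.68, p = 0.005, adjusted p = 0.0550, exact permutation). That p is the smallest the permutation allows, and 1 class alone at it cannot pass over 11 classes, so the test cannot decide there. Within each number of cells every H3K27ac library of that class exceeded every Pol2S2P library. The lowest H3K27ac against the highest Pol2S2P library was 3.01 against 2.84 in 100 cells and 3.32 against 3.10 in 1000 cells. Variable exons had 0.186 against 0.248 in alpha, 0.624 against 0.541 in beta and 1.10 against 1.08 in gamma.

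Along the gamma cluster, 3 stretches chosen after seeing the data gave a rising series in all 8 dual groups. In dual libraries of 1000 cells Pol2S2P was 0.638 ± 0.275 from Pcdhga1 to before Pcdhgb4, 1.25 ± 0.0476 from there to before Pcdhgc3, and 3.86 ± 0.292 from Pcdhgc3 to the end. In 100 cells it was 0.605, 1.28 and 4.13, and under single staining 0.487, 1.38 and 5.33. H3K27ac in 1000 cells was 0.616 ± 0.0708, 1.47 ± 0.183 and 3.67 ± 0.693. H3K4me3 in 10000 cells was 0.594, 1.57 and 6.71, and CTCF in 10000 cells 1.29, 2.07 and 2.31. Under single staining CTCF was 1.36, 2.17 and 1.98. The level after the Pcdhgc3 start divided by that before it was 3.85 for Pol2S2P, 3.27 for H3K27ac, 5.83 for H3K4me3 and 1.32 for CTCF in these groups. Given as a description without a test, the step at Pcdhgc3 was thus smallest for CTCF.

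**Figure D5:**
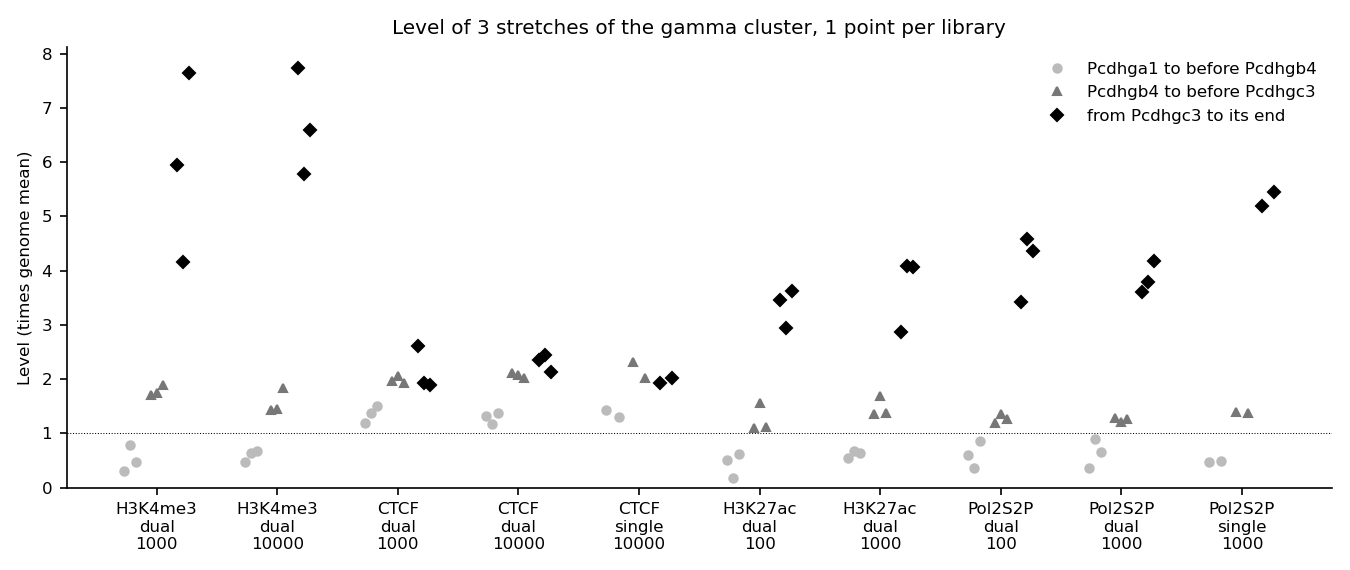
Level per library (times genome mean, 1 point per library) in 3 stretches of the gamma cluster, for the 10 groups of libraries. In every Pol2S2P, H3K27ac and H3K4me3 group the stretch from Pcdhgc3 to the end lies above the earlier ones, at 3.86 for Pol2S2P in 1000 cells, while the CTCF groups step less.

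The tallest Pol2S2P and H3K27ac bin inside the clusters lay in this last stretch, after Pcdhgc3 (chr18:37812851-37813850, intervening). Pol2S2P there was 6.66, 20.05 and 14.7 in 100 cells, 8.66, 15.8 and 14.2 in 1000 cells, and 5.97 and 11.9 under single staining. H3K27ac was 10.1, 12.2 and 13.6 in 100 cells and 7.54, 12.2 and 5.43 in 1000 cells. Further H3K27ac bins stood at 8.19 ± 3.44 and 6.70 ± 3.39 after the start of Pcdhgc5. The bins carry no strand, and beyond the gamma cluster lies Diaph1, an actin-nucleating formin, with a Pol2S2P level of 3.60 ± 0.602 over its bins in 1000 cells. Reads of the cluster's end and of Diaph1 cannot be told apart where they adjoin.

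Between the alpha and beta clusters 2 neighbouring bins (chr18:37216851-37217850 and chr18:37217851-37218850), 29.2 to 31.2 kb after the shared alpha end, had CTCF. The first stood at 2.54, 8.87 and 13.8 in 1000 cells, 17.0, 14.6 and 18.1 in 10000 cells, and 13.3 and 9.89 under single staining. The second stood at 16.5, 8.87 and 20.7, then 21.8, 17.6 and 22.6, and 19.9 and 10.7. Both were lower in H3K4me3 in 10000 cells, with log2 differences of -1.89 (SE 0.427) and -2.40 (SE 0.418). Their H3K4me3 means over the 6 dual libraries were still 2.94 and 2.75 times the genome mean. Pol2S2P had no count in the second bin in any of its 8 libraries, and H3K27ac there averaged 0.628. An enhancer of the alpha cluster that CTCF binds is known to lie after the alpha constant exons. Whether these bins hold it was not checked.

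Counts of called features are read against the whole table. In 10000 cells 5 of the 58 start windows had enough counts to be tested for H3K4me3 against CTCF, and 91.7% of all starts tested passed. The 5 passed the count filter through the target in which they are high, so the count says nothing of the genes as a set. H3K4me3 was higher at 1, Pcdhgc3, and CTCF was higher at 4 beta genes, where 5.61% of all starts passed in that direction. Pcdhb17 had CTCF at 7.62, 7.87 and 6.90 and H3K4me3 at 1.86, 1.78 and 3.03 times the genome mean in these 6 libraries, a log2 difference of -1.77 (SE 0.375, edgeR adjusted p = 6.84e-06). Pcdhb8 had 3.90, 4.18 and 5.82 against 0.619, 1.78 and 0.605, a log2 difference of -2.03 (SE 0.50, edgeR adjusted p = 9.15e-05).

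Pcdhb14 (log2 -0.84, edgeR adjusted p = 0.0431) and Pcdhb16 (log2 -0.90, edgeR adjusted p = 0.0437) passed by little. Pcdhb14 lost its call without H3K4me3 replicate 1 (adjusted p = 0.327) or 3 (0.0541), and Pcdhb16 without replicate 1 (0.188), 2 (0.0928) or 3 (0.0642), and both lost it with no count filter (0.0770 and 0.0917). In 1000 cells Pcdhgc3 was the sole member tested and called, where 93.4% of starts passed. CTCF at the Pcdhb17 start was 0.846, 5.38 and 6.61 in those cells, so that 1 library stood low, and H3K4me3 was 0, 2.00 and 0.833.

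For single bins in 10000 cells, 31 of the 1199 were tested for H3K4me3 against CTCF, with 13 higher in H3K4me3 and 14 higher in CTCF, where 83.3% of all tested bins passed (53.9% and 29.4% by direction). Scaling by TMM gave 8 higher and 17 lower, and DESeq2 gave 4 and 17. CTCF-higher bins in the clusters were those of Pcdhb14 (log2 -2.29), Pcdhb16 (-1.54), Pcdhb17 (-1.59) and Pcdhgb8 and the pair after the alpha cluster. They passed the count filter through CTCF, with 74 to 156 counts over 3 libraries against 5 to 17 in H3K4me3, so the filter favoured that direction. The rest lay in neighbours, 7 in Diaph1 and 1 in Arap3. In 1000 cells 12 bins were tested, with 5 higher and 4 lower (91.4% of all tested bins passed, 71.9% and 19.5% by direction), and with TMM 1 and 7, with DESeq2 0 and 7. Shares of all bins called with TMM or DESeq2 are not given here. In windows of 10 kb 48 of 66 tested passed with 10000 cells and 26 of 33 with 1000 cells, where 42.5% and 51.6% of all tested windows did. Directions are not given for these windows, which passed the same count filter and include Diaph1 and other neighbours. Their shares are therefore no result about the clusters.

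H3K27ac against Pol2S2P gave no called clustered protocadherin. In 1000 cells Pcdhgc3 and Pcdhgc5 were tested and 0 passed, where 16.6% of starts did (edgeR; 1 had an unadjusted p under 0.05, and DESeq2 called 0). In 100 cells no member was tested, where 28.3% of the tested starts passed. Among bins of 1000 cells 10 were tested and 5 were higher in H3K27ac, all in Diaph1, where 65.5% of tested bins passed (55.9% higher in H3K27ac). TMM and DESeq2 each gave 0 higher and 1 lower there, with the shares over all bins not given here. In 100 cells 1 of 2 tested bins passed, higher in H3K27ac and again in Diaph1 (77.4% of tested bins, 70.8% in that direction). In windows of 10 kb 4 of 35 passed with 1000 cells and 3 of 16 with 100 cells, where 25.6% and 29.6% of all tested windows did. These too include the neighbours and are no result about the clusters.

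Dual staining was compared with single staining of the same antibody target. For CTCF in 10000 cells 29 members were tested and 0 passed, where 0.366% of starts did (edgeR; 5 had an unadjusted p under 0.05, against 11.4% of all starts, and DESeq2 called 0). The smallest of the p-values was for Pcdhga11, with 1.42, 1.34 and 0.863 in dual and 2.55 and 2.90 in single libraries (log2 -1.15, SE 0.417, edgeR adjusted p = 0.200). For Pol2S2P in 1000 cells Pcdhgc3, Pcdhgc4 and Pcdhgc5 were tested and 0 passed, where 43.8% of starts did (edgeR; 2 unadjusted p under 0.05, DESeq2 0). Pcdhgc4 had a log2 difference of -1.0 (SE 0.452, edgeR adjusted p = 0.0600), close to the shift of -0.80 in the median start. With windows from 1 kb before to 1 kb after the start all 3 were called lower. The share of all starts called in those windows is not given here, so the count says nothing of these genes as a set.

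No member was called between numbers of cells. H3K4me3 in 10000 against 1000 cells had 1 member tested and 0 called (3.24% of all starts; edgeR; 0 with an unadjusted p under 0.05, DESeq2 0), and CTCF 15 tested and 0 called (0.147%; edgeR; 3 with an unadjusted p under 0.05, DESeq2 0). The largest CTCF difference was at Pcdhb12, with 3.01, 3.01 and 2.59 in 10000 cells and 0, 1.08 and 0.574 in 1000 cells (log2 2.16, SE 0.595, edgeR adjusted p = 0.0704). H3K27ac and Pol2S2P in 1000 against 100 cells each had Pcdhgc3 tested and 0 called (0.0311% and 0% of all starts; edgeR; 0 with an unadjusted p under 0.05, DESeq2 0). The H3K4me3 against CTCF difference at Pcdhb17 did not change detectably between cell numbers (interaction log2 0.24, edgeR adjusted p = 0.978).

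Other genes linked to the pathway were examined in the same way. Of 12 protocadherins outside the clusters, Pcdh7 (29.8), Pcdh19 (25.3), Pcdh1 (21.0) and Pcdh18 (3.63) passed 2 times the genome mean in H3K4me3, and the median was 0.209. Of 11 genes that regulate the choice of clustered protocadherins (CTCF, cohesin, methylation and silencing factors), 8 passed 2 times with a median of 18.9, where 49.9% of all starts pass. Of 11 partners of the cytoplasmic domain, among them focal adhesion kinases and the WAVE complex, 9 passed with a median of 21.1. In the test of H3K4me3 against CTCF in 10000 cells 3 of 3, 7 of 7 and 9 of 9 tested genes of these lists had more H3K4me3, a share to be read against 86.1% of the starts tested genome-wide, with median log2 differences of 2.27, 2.77 and 2.59 against 2.07 over all starts.

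The other coding genes of the window give the local setting. Diaph1 had 24.5 ± 3.40 in H3K4me3 and 12.5 ± 2.45 in CTCF at its start window, and the tallest CTCF bin of the whole window (36.3 ± 6.52) and the tallest H3K27ac bin (32.3 ± 5.57) lay within it. Hdac3, a histone deacetylase, had 11.7 ± 3.44 in H3K4me3 and Rell2 7.33 ± 2.33. Fchsd1 (0.740), Arap3 (1.26) and Slc25a2, which lies between the beta and gamma clusters (1.04), were low at their start windows. Taf7, a subunit of the general transcription factor TFIID beside Slc25a2, had 3.32 ± 1.03 in H3K4me3 over its bins in 10000 cells. By that other measure Fchsd1 stood at 1.96 ± 0.260, Arap3 at 1.35 ± 0.0896 and Slc25a2 at 0.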

How the data were processed

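The deposited values are raw counts of reads per 1 kb bin in 1 table; per the submitters' processing notes, the authors used bcl2fastq, HISAT2 2.1.0 with GRCm38 and deepTools 3.3.1. How duplicates and multiply mapped reads were handled is not stated in the sources used. A column was found by name for 28 of 34 samples; 6 samples and 4 unmatched columns were not analysed here. Library size was the total on the autosomes and X without 9 bins over 50 times the genome mean. A level is the density per bin over the library's genome mean, and CPM uses the same total.

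Genes came from the GRCm38.p6 table, with strand for 17332 coding genes from RefSeq promoter records and, for 4297 others, the end with more counts in libraries of the other target pair. No exon table was used: variable exons are the first 2.5 kb of alpha and gamma genes and whole beta genes, and constant exons the last 3 kb before the shared end. Read-through models (3) were left out.

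edgeR 4.0.16 (quasi-likelihood, filterByExpr, totals without further scaling) in R 4.3.3 was fitted to all 1 kb bins and to all 3 kb gene start windows, with only the groups compared in each fit and Benjamini-Hochberg adjustment over the genome (threshold 0.05). Classes of bins were tested by exact two-sided permutation within each number of cells (400 arrangements, smallest p 0.005), and ratios within libraries by exact sign-flip permutation (smallest p 0.03125 with 6 libraries and 0.0078125 with 8, adjusted over 12 tests). Column names give the same-numbered libraries of 2 targets 1 dual staining; their deviations from the group means correlated at 0.00806 to 0.105, and in 3 of 4 pairs of groups each library correlated best with its own number. A self-test on simulated counts was run first. Named genes are the C-type genes, Pcdhb1, the 2 highest and 2 lowest of each cluster and target, every member called, and the other coding genes; named bins are the called ones and the 5 highest. Others named were chosen after their values were seen. Members and lists were chosen with earlier results of these data known. Alternatives were TMM, DESeq2 1.42.0, other filters and windows, totals without the top bins, replicates left out and a replicate block. Python 3.11.15, numpy 2.4.6, pandas 2.3.3, scipy 1.17.1 and matplotlib 3.10.9 were used.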

Additional observations from a re-analysis of the deposited data

How the results depend on the processing

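Of 431 alternatives over 56 results, 3 class differences and 1 ratio within libraries changed direction. Without the Pcdhgc3 bins, an alternative chosen after seeing the data, the gamma variable exon difference of H3K4me3 against CTCF became -1.13. The gamma ratio of H3K4me3 became -1.11 (log2). That of CTCF fell to 0.214 (log2) and no longer passed. That of H3K27ac lost its call too, though it moved further from 0, from -0.69 to -1.05 (log2). With 6 libraries no p under 0.03125 is possible, so this loss does not show a weaker difference. The flank difference became -0.0107 without its highest bin, and that of other coding genes 0.170 with totals without the highest 1% of bins, where the gamma constant exon difference was -1.15 and not called. With variable exons taken from 1 kb before the start, the beta ratios passed at 1.01 for H3K4me3 and 0.484 for H3K27ac (log2). The cause of these shifts was not tested.

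Members called for H3K4me3 against CTCF in 10000 cells numbered 5, against 23 with no filter (all 58 tested), 8 in windows 1 kb either side of the start, and 2 to 13 when each replicate was left out: 2 without any 1 CTCF library and 11 to 13 without any 1 H3K4me3 library; the cause was not tested. In 1000 cells 1 member was called, against 0 with TMM, 0 with DESeq2, 14 with no filter, 2 in the narrower windows and 1 to 2 without a replicate. Pol2S2P in dual against single staining gave 3 in the narrower windows. The shares of all starts called under these alternatives are not given here, so these counts say nothing of the members as a set. Bins called in 10000 cells numbered 27, against 54 at a minimum count of 3, 48 in 10 kb windows and 24 to 38 without a replicate. In 1000 cells 9 were called, against 24, 26 and 8 to 16 (15 and 16 without H3K4me3 replicates 2 and 3). For H3K27ac against Pol2S2P in 1000 cells 5 bins were called, against 1 with TMM, 1 with DESeq2 and 3 to 10 without a replicate (3 without H3K27ac replicate 3, 8 without H3K27ac replicate 1, 10 without Pol2S2P replicate 2). In 100 cells 1 was called, against 0 with TMM, 0 with DESeq2, 3 in 10 kb windows and 0 to 2 without a replicate (0 without H3K27ac replicate 1 or 3, 2 without Pol2S2P replicate 2). Apart from the 10 kb windows, shares of all bins called under these alternatives are not given here. The bin counts thus say nothing of the locus as a set.

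With the replicate block, that is with same-numbered libraries of a dual staining as pairs, the counts were 5 and 1 members and 27, 9, 6 and 1 bins, and of the class differences only that at the gamma constant exons (-1.22) lost its call (exact paired adjusted p = 0.0764). Class tests without a replicate cannot pass the threshold. H3K4me3 libraries of 1000 cells held 719766 to 1317176 counts, which limits what can be detected at single starts.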
